A study of Homo sapiens with 32 samples.

Results

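The 10 genes described here are BRAF and 9 genes that the MAPK (RAS-RAF-MEK-ERK) pathway drives or that feed back on it: DUSP4, DUSP6, SPRY2, SPRY4, SPRED1, ETV1, ETV4, ETV5 and CCND1. They were followed as m6A peaks, N6-methyladenosine-rich stretches of RNA, in peak lists of A375, an established human melanoma cell line that carries an activating BRAF mutation. A peak belonged to a gene when its summit lay inside the RefSeq span of the gene. Of the 180114 peaks in 4 lists, 182 met this rule.

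The lists came from m6A immunoprecipitations of chromatin-associated RNA, depleted of ribosomal RNA. Of the 32 samples and 16 groups of the series, 2 groups of 2 libraries were used. In the shMETTL3 libraries (labelled METTL3 knockdown), a short hairpin RNA targeted METTL3, the enzyme of the complex that writes most m6A in mRNA, and the shControl libraries (labelled WT) served as control. Both groups were A375 cells, enriched with the same kit, with an m6A spike-in and strand-specific libraries. The sources used here do not say how many hairpins or clones were used or whether replicates were separate cultures. The p-value below thus measures only the spread between these libraries, which may be technical.

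In the MAPK pathway, RAS activates RAF kinases such as BRAF, these activate MEK, and MEK activates ERK. ERK signalling induces its own inhibitors. DUSP4 and DUSP6 are phosphatases that dephosphorylate MAP kinases, Sprouty (SPRY) and SPRED proteins act further up, at the level of RAS and RAF, and ETV1, ETV4 and ETV5 are the PEA3 group of ETS transcription factors, activated and induced by ERK. CCND1 encodes cyclin D1, through which ERK signalling promotes entry into the cell cycle. These genes are widely used as a readout of pathway activity in BRAF-mutant melanoma. METTL3 places m6A on adenosines within a short sequence context, and in mRNA the mark is known to be common in long exons and around stop codons.

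The shMETTL3 lists held 44108 and 42969 peaks, and the shControl lists 45345 and 47692. METTL3 itself carried 5 peaks in every list. A peak depends on both the amount of an RNA and its methylation, so less methylation, less RNA per cell and fewer cells cannot be told apart, and METTL3 peaks do not measure the knockdown. The number of reads behind the lists is unknown. Of 8 markers of the melanocyte lineage, MITF alone carried peaks, 7 and 9 in the shMETTL3 lists and 5 and 8 in the shControl lists, and SOX10, PMEL, TYR, DCT, MLANA, TYRP1 and S100B were without any. All 5 genes of a dedifferentiated melanoma list (AXL, NGFR, SOX9, EGFR and WNT5A) carried peaks. Together they had 33 and 30 in the shMETTL3 lists and 28 and 29 in the shControl lists. Most were in EGFR, with 22 and 21 against 19 and 18, and WNT5A had 2 and 2 against 0 and 0. AXL had 4 and 3 against 4 and 6, SOX9 3 and 2 against 3 and 4, and NGFR 2 and 2 against 2 and 1. Of the leukocyte markers 0 of 5 had a peak, of the keratinocyte markers 1 of 5 (KRT10, with 1 and 1 peak in the shMETTL3 lists and 0 and 0 in the shControl lists) and of the endothelial markers 1 of 4 (PECAM1, with 0 and 0 against 3 and 4). The part of other cell types in the results was not tested.

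A locus is a stretch of 1 strand covered by overlapping peaks of any of the lists. A locus is called control-only when it had a peak in both shControl lists and in neither shMETTL3 list, and knockdown-only when it had a peak in both shMETTL3 lists and in neither shControl list. The fold is the enrichment at the peak summit as the authors deposited it. It is relative to its own library, so folds of different lists are set side by side as descriptions.

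The 10 genes held fewer peaks in the shMETTL3 libraries, 41 and 43, than in the shControl libraries, 48 and 50. The means were 42.0 ± 1.41 and 49.0 ± 1.41 (SD, n = 2 each), with p = 0.33 by the exact permutation test (two-sided). With 2 libraries in each group, no lower p can be reached. The groups overlapped among peaks with a −log10 q of at least 10, with 39 and 40 in shMETTL3 and 38 and 45 in shControl (difference of the means -2.0, exact permutation p = 1.0). With lists limited to equal length the numbers were 40 and 43 in shMETTL3 and 44 and 45 in shControl, a difference of -3.0. The order turned round among strong peaks: with a fold of at least 4 the numbers were 22 and 22 in shMETTL3 and 13 and 16 in shControl. Median folds of the whole lists were also higher in shMETTL3, at 3.92 and 3.93, than in shControl, at 3.84 and 3.65. The part of this in the turn was not tested.

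The difference was not shared evenly by the genes. BRAF and ETV1 had fewer peaks in both shMETTL3 lists than in both shControl lists, which is 2 of 10 genes, against 24.4% of the 10735 protein-coding genes with a peak. Without shMETTL3 replicate 2 the number was 4 of 10, with DUSP6 and ETV5 added. Without shControl replicate 2 it was also 4, with ETV4 and SPRY4 added. Peak numbers depend in part on how a locus is split into peaks. The largest SPRY4 locus held 2 and 2 peaks in shMETTL3 and 4 and 3 in shControl. A DUSP6 locus at 3.08 kb held 1 and 1 against 2 and 2, while that at the DUSP6 start held 1 and 3 against 1 and 1. DUSP4, SPRY2 and CCND1 had more peaks in both shMETTL3 lists, 3 of 10 against 19.4% of protein-coding genes. On the own strand of each gene this number fell to 1, DUSP4. The shares of 24.4% and 19.4% are of the full lists on either strand, and no matching share is given for the other settings. With 10 genes, neither count is read as particular to them.

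**Figure D1:**
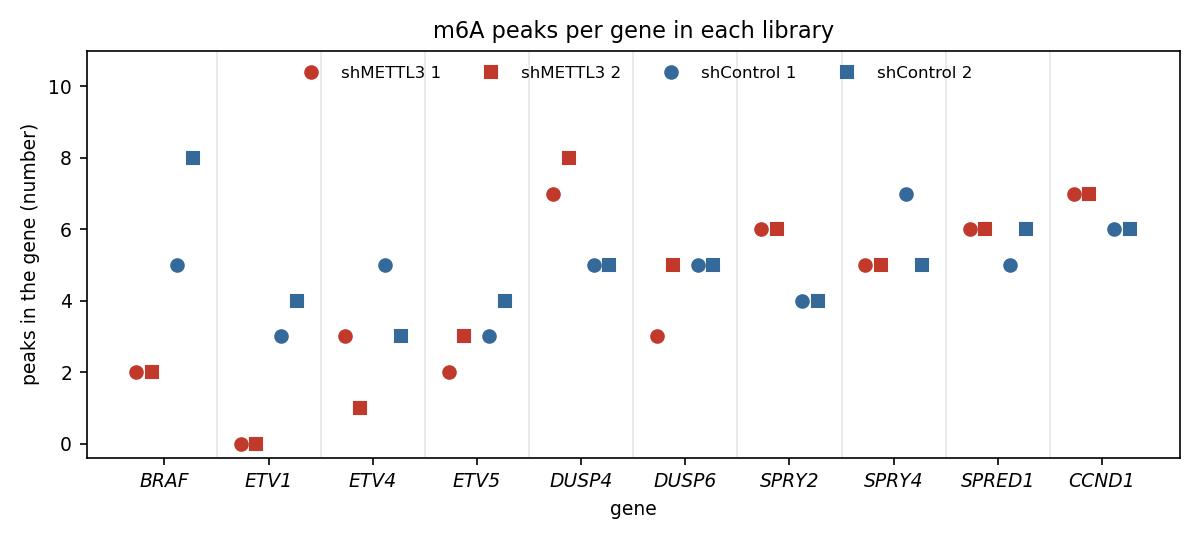
Number of m6A peaks (vertical axis) whose summit lies in each gene (horizontal axis), with 1 point per library, shMETTL3 in red and shControl in blue, circles for replicate 1 and squares for replicate 2. BRAF had 2 and 2 peaks in shMETTL3 against 5 and 8 in shControl, ETV1 had 0 and 0 against 3 and 4, and DUSP4 had 7 and 8 against 5 and 5.

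Merged by position, the peaks formed 61 loci, of which 27 were in all 4 lists. Of the 35 loci in both shMETTL3 lists 7 were knockdown-only, which is 20%, against 18.6% over the loci of all protein-coding genes. Of the 40 loci in both shControl lists 10 were control-only, which is 25%, against 21.9%. As a whole the 10 genes were near the background in both directions. When peaks needed a fold of 4, knockdown-only loci made up 8 of 16 against a background of 27.3%, and control-only loci 1 of 9 against 24.6%. In these counts a peak below a fold of 4 is taken as absent, so such loci can hold weaker peaks of the other group. Examples are the BRAF locus in all 4 lists, with shControl folds of 3.09 and 3.43, and an ETV4 locus, with 1.96 and 2.63. The 1 control-only locus, at the CCND1 start, had shMETTL3 folds of 3.71 and 3.20. When peaks had to share 50% of both lengths, knockdown-only loci numbered 11 of 35, against a background of 23.8%.

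Set out by role, the counts differed between the genes. Of the loci in both shMETTL3 lists, 0 of 2 were knockdown-only in BRAF and 0 of 2 in the 3 ETS genes, against 6 of 25 in the 5 feedback inhibitors and 1 of 6 in CCND1. Of the loci in both shControl lists, 3 of 4 were control-only in BRAF and 5 of 9 in the ETS genes. The feedback inhibitors had 2 of 21 and CCND1 0 of 6. Over protein-coding genes the shares were 18.6% knockdown-only and 21.9% control-only. Of the 6 knockdown-only loci in feedback inhibitors, the 2 in SPRY2 lay on the opposite strand. The contrast in control-only loci did not hold with a fold of at least 4. BRAF, each ETS gene and each feedback inhibitor then had 0 control-only loci, and CCND1 had 1. BRAF and ETV4 then had 1 knockdown-only locus each. No test is given for this contrast, because loci of a gene share its RNA and the genes were chosen with earlier results of these data known.

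**Figure D2:**
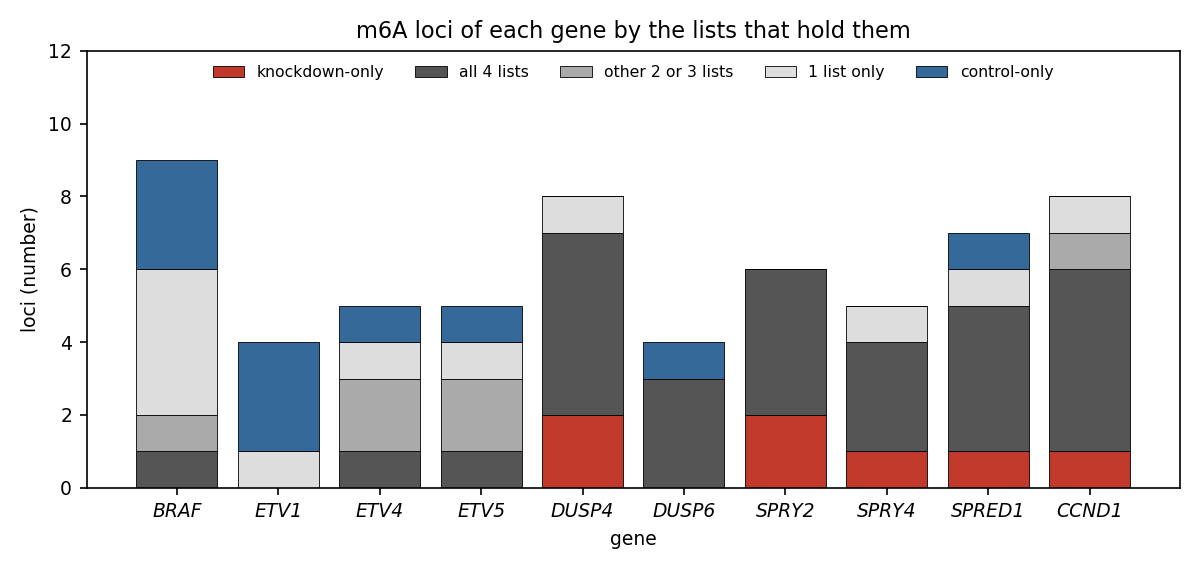
Number of m6A loci (vertical axis) in each gene (horizontal axis), stacked by the lists that hold them: knockdown-only, all 4 lists, other combinations of 2 or 3 lists, 1 list only, and control-only. The 10 control-only loci lie mainly in BRAF (3) and ETV1 (3), and the 7 knockdown-only loci lie in DUSP4, SPRY2, SPRY4, SPRED1 and CCND1.

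BRAF, the kinase gene that is mutated in this line, spans 211.602 kb on the minus strand of chromosome 7 (hg38, chr7:140713328-140924929). Its 9 loci all lay on its own strand, and 7 of them lay between 86.9 and 125 kb from the gene start. The gene spans used here carry no exons, so loci are placed by their distance from the start or end of the gene and not as exonic or intronic. A single locus was in all 4 lists, at chr7:140829700-140830122, 95.0 kb from the start. Its folds were 4.14 and 6.82 in shMETTL3 and 3.09 and 3.43 in shControl. It was the strongest BRAF peak of shMETTL3 replicate 2.

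The 3 control-only loci of BRAF were weak or moderate. The locus at chr7:140823953-140824135 had no shMETTL3 peak and folds of 3.46 and 3.95 in shControl. A neighbouring locus, chr7:140825949-140826207, had no shMETTL3 peak either and folds of 3.11 and 3.33 in shControl. The third, at chr7:140912382-140912760 and 12.3 kb from the start, was the weakest, with no shMETTL3 peak and folds of 1.74 and 1.51 in shControl.

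The BRAF locus nearest to the gene end, at chr7:140726118-140726400, had folds of 4.49 and 3.67 in shMETTL3 and a single shControl peak, with a fold of 2.88 in replicate 2. The other 4 loci were each in 1 shControl list, with folds of 2.27 in replicate 1 and of 3.35, 3.13 and 2.35 in replicate 2. In both shMETTL3 lists BRAF peaks were thus confined to the loci at 95.0 and 199 kb. When a fold of 4 was required, the direction for BRAF turned round, with 2 and 1 peaks in shMETTL3 and 0 and 0 in shControl.

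ETV1, the first of the 3 ETS genes, had no peak in either shMETTL3 list and 3 and 4 peaks in shControl. It spans 100.197 kb on the minus strand of chromosome 7, and its peaks lay at 2 places. Near the start, 3.25 kb into the gene, the locus chr7:13988145-13988313 had shControl folds of 2.85 and 2.82. In the middle, at 55.6 and 59.8 kb, the locus chr7:13935743-13935934 had shControl folds of 3.66 and 3.0 and the locus chr7:13931528-13931765 had 2.81 and 3.56. All 3 were control-only. The strongest ETV1 peak, with a fold of 4.68 at 4.74 kb from the start, was in shControl replicate 2 alone. The ETV1 locus nearest to the gene end was still 40.4 kb from it.

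ETV4 and ETV5 each kept 1 locus in all 4 lists. In ETV4, on chromosome 17, it lay in the interior at chr17:43538971-43539627, with folds of 4.01 and 4.71 in shMETTL3 and 1.96 and 2.63 in shControl. In ETV5, on chromosome 3, it lay 2.17 kb from the gene end at chr3:186048003-186049005, with folds of 4.24 and 3.74 in shMETTL3 and 5.01 and 4.14 in shControl. This ETV5 locus was also broad, from 828 to 970 bp in the 4 lists.

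Each of these genes also had 1 control-only locus in its first part. In ETV4 it lay 1.0 kb from the gene start at chr17:43545237-43545421, with folds of 3.52 and 3.82 in shControl, the strongest ETV4 peaks of these lists. In ETV5 it lay 3.38 kb from the start, with weak shControl folds of 1.51 and 2.04. A further ETV5 locus, at chr3:186079875-186080208, had a peak in shMETTL3 replicate 2 (fold 2.63) and in both shControl lists (folds of 5.21 and 3.73). It lies in the span of ETV5-AS1, an antisense RNA gene of the plus strand, but its peaks were on the minus strand, that of ETV5.

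The peaks of ETV4 were also all on the minus strand, although 10 of its 12 lie in the span of DHX8, a gene annotated on the plus strand. The strands of ETV4 and ETV5 were themselves taken from most of their peaks. The remaining loci of both genes varied within the groups. In ETV4, a locus at 13.5 kb had a fold of 1.91 in shMETTL3 replicate 1 and folds of 2.84 and 1.72 in shControl, and a locus 0.25 kb from the gene end had 3.65 in shMETTL3 replicate 1 and 2.30 in shControl replicate 1. In ETV5, a locus at 43.0 kb had 3.98 in shMETTL3 replicate 2 and 3.22 in shControl replicate 2. A further locus in each was in 1 list, near the start of ETV5 in shMETTL3 replicate 1 (fold 2.75) and at 12.3 kb of ETV4 in shControl replicate 1 (fold 2.99). ETV4 had 3 and 1 peaks in shMETTL3 and 5 and 3 in shControl. ETV5 had 2 and 3 in shMETTL3 and 3 and 4 in shControl. In both genes the groups touched or overlapped.

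**Figure D3:**
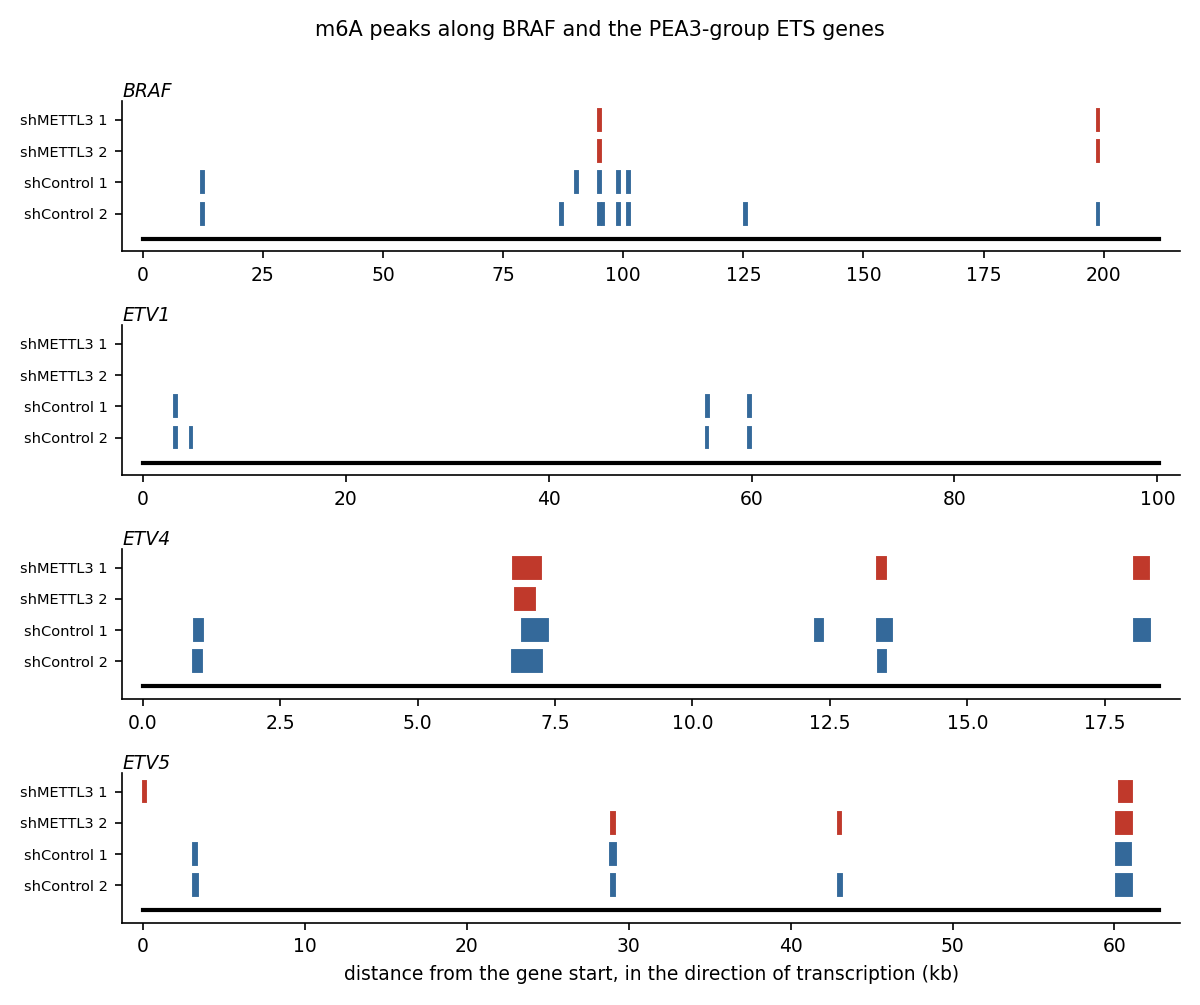
Peaks (bars) of the 4 libraries along BRAF, ETV1, ETV4 and ETV5, by distance from the gene start in the direction of transcription (kb), with the shMETTL3 lists above the shControl lists and the gene as a black line. Narrow peaks are drawn at a minimum width. In BRAF the locus at 95.0 kb is shared by all lists while those at 98.8 and 101 kb are in the shControl lists only, and ETV1 has no bar in the shMETTL3 lists.

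DUSP4, a phosphatase of ERK and other MAP kinases, had more peaks in shMETTL3. It carried 7 and 8 peaks in shMETTL3 and 5 and 5 in shControl, and its span of 17.621 kb on chromosome 8 held 5 loci in all 4 lists. These included a broad locus at the gene start, chr8:29349815-29350739, with folds of 4.36 and 4.91 in shMETTL3 and 4.34 and 4.03 in shControl. The locus 5.41 kb from the gene end had folds of 3.88 and 5.74 in shMETTL3 and 5.41 and 5.57 in shControl. That at 7.22 kb from the end had 3.85 and 5.78 in shMETTL3 and 2.81 and 3.67 in shControl. The most 3′ locus, 3.88 kb from the end, was again broad, at 838 and 835 bp in shMETTL3 and 844 and 851 bp in shControl. Its folds were 3.78 and 5.49 in shMETTL3 and 3.89 and 2.71 in shControl.

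Between the shared loci, DUSP4 had 2 knockdown-only loci. The locus at chr8:29348784-29349583, 1.58 kb from the start, had folds of 4.66 and 1.94 in shMETTL3. The locus at chr8:29345533-29345804, 5.01 kb from the start, had folds of 4.01 and 4.98 in shMETTL3. Neither had a shControl peak. Between them lay a locus at 2.16 kb, in shMETTL3 replicate 2 alone (fold 2.79), and a locus at 2.71 kb that was in all lists, with folds of 2.19 and 2.0 in shMETTL3 and 3.79 and 3.0 in shControl.

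DUSP6, a phosphatase specific for ERK, is only 5.267 kb long and 3 of its 4 loci were in all 4 lists. They lay at the gene start, at 1.75 kb and at 3.08 kb. At the start the folds were 3.65 and 3.42 in shMETTL3 and 3.19 and 3.12 in shControl, and at 1.75 kb they were 3.36 and 3.16 in shMETTL3 and 3.41 and 2.4 in shControl. The locus at 3.08 kb was the strongest DUSP6 locus in every list (chr12:89348651-89349618), with folds of 5.27 and 6.94 in shMETTL3 and 4.14 and 4.34 in shControl. There the shMETTL3 lists had a single peak of 905 and 950 bp, and the shControl lists had 2 peaks each, the longer of 455 and 449 bp. The control-only locus, chr12:89348212-89348383, lay 1.02 kb from the gene end and had folds of 2.90 and 2.57 in shControl. DUSP6 is also part of the read-through gene POC1B-DUSP6 on the same strand, whose span holds all 18 of its peaks, so the transcripts cannot be told apart.

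In 3 genes the start locus reached past the annotated start in every list, by 50 to 55 bp in DUSP4, 33 to 38 bp in DUSP6 and 57 to 67 bp in CCND1. For DUSP6, the 100 bases before the RefSeq start are shown (GRCh38.p14, minus strand, chr12:89352502-89352601). They are upstream of DUSP6 itself but lie inside the span of the read-through gene POC1B-DUSP6 on the same strand. Capitals mark the 33 bases that a peak covered in all 4 lists.
DUSP6 upstream: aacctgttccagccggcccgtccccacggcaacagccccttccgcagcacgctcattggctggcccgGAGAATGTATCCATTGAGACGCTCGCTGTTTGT

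SPRY2, an inhibitor of signalling from receptor tyrosine kinases to ERK, had the highest density of loci, 6 in 5.151 kb. All 4 loci on its own (minus) strand were in all 4 lists. The locus at chr13:80336747-80337847, about 1.12 kb from the gene end, was its strongest in every list, with folds of 5.23 and 6.61 in shMETTL3 and 6.39 and 5.76 in shControl. It was also the broadest, covering 1089 and 1101 bp in shMETTL3 and 1077 and 1031 bp in shControl. The first locus, 0.33 kb from the start, had folds of 4.69 and 4.78 in shMETTL3 and 3.73 and 3.27 in shControl.

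Another SPRY2 locus, chr13:80339602-80340479, covers 2 starts that RefSeq annotates inside the gene. In the window from 250 bases before to 50 after the more 5′ of them, the 4-base core GGAC, a favoured context of m6A, occurred 3 times on the transcribed strand and 2 times on the other. In the window of the other start it occurred 1 time on the transcribed strand, under a peak of shMETTL3 replicate 2 alone, and 2 times on the other strand. GGAC was the only motif searched. The core is common: of 35116 RefSeq start windows of the same length, 66.3% held it on the transcribed strand and 87.4% on either strand. The DUSP6 window held no GGAC on the transcribed strand. A match is a description of the letters and no sign of a methylated base. The stretches that hold the 3 copies of the more 5′ window are shown because peaks covered them (GRCh38.p14, minus strand, chr13:80340327-80340356 and chr13:80340129-80340158), with GGAC in capitals.
SPRY2 site 1: gggttgGGACggaGGACagctagcctgaag
SPRY2 site 2: tggtggggctgggGGACacaggttgcccgc

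Peaks of all 4 lists covered SPRY2 site 1, and the second of its GGAC copies lay 120 and 12 bp from the nearest summits in shMETTL3 and 48 and 340 bp in shControl. Site 2 was covered in both shMETTL3 lists and in shControl replicate 2. The SPRY2 locus over these sites had folds of 3.28 and 3.6 in shMETTL3 and 1.98 and 2.91 in shControl. The remaining own-strand locus, 2.23 kb from the start, had 3.78 and 2.96 in shMETTL3 and 1.83 and 3.04 in shControl.

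The 2 knockdown-only loci of SPRY2 lay on the strand opposite to the gene. One, chr13:80340665-80340917, had folds of 3.82 and 3.53 in shMETTL3, and the other, chr13:80337131-80337401, had 3.87 and 4.34. Both fell wholly inside an own-strand locus of all 4 lists. Together with 1 locus in SPRY4 and 1 in CCND1, the 10 genes had 4 loci on the opposite strand, and all 4 overlapped an own-strand locus. Opposite-strand peaks made up 9 of the 182. Whether they stem from antisense RNA was not tested.

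SPRY4, a second Sprouty gene, spans 14.592 kb on chromosome 5, and 4 of its 5 loci lay 9.91 kb or more from the start. The largest, chr5:142312942-142315272, joined peaks of all 4 lists over 2331 bp. Its highest folds were 7.62 and 8.94 in shMETTL3 and 5.61 and 6.22 in shControl, but these came from different peaks. The peaks nearest to the gene start had 4.51 and 8.94 in shMETTL3 and 5.21 and 6.22 in shControl. Those nearest to the gene end had 7.62 and 5.60 in shMETTL3 and 2.82 and 5.84 in shControl. The locus was made of 2 peaks in each shMETTL3 list, the longer of 1856 and 1589 bp, and of 4 and 3 shorter peaks in shControl. Covered by this locus on the opposite strand, chr5:142314114-142314467 had folds of 7.68 and 9.71 in shMETTL3 and 4.97 and 4.71 in shControl. The value of 9.71 was the highest of the 182 peaks.

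Nearer to the SPRY4 gene end, a locus 0.69 kb from it was in all 4 lists, with folds of 2.34 and 3.63 in shMETTL3 and 2.41 and 4.27 in shControl. A knockdown-only locus, 1.67 kb from the end, was weak, with folds of 2.7 and 2.1 in shMETTL3. The only locus in the first part of the gene was in shControl replicate 1 alone. No peak lay in SPRY4-IT1, the long noncoding RNA gene within SPRY4.

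SPRED1, which inhibits RAS through the RAS GTPase-activating protein NF1, spans 104.414 kb on the plus strand of chromosome 15. It kept 4 of 7 loci in all 4 lists. The strongest in every list was chr15:38350915-38352021, 5.91 kb from the gene end, with folds of 7.80 and 8.47 in shMETTL3 and 5.66 and 8.84 in shControl. In shMETTL3 it was a single peak of 1107 and 1096 bp, and in shControl the longest peak covered 560 and 553 bp.

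Further 3′, SPRED1 had a knockdown-only locus at chr15:38354382-38354619, 2.74 kb from the gene end, with folds of 4.27 and 5.31. Its control-only locus was at the other end of the gene, chr15:38264336-38264725, with folds of 2.99 and 2.18 in shControl. Close to it, a locus 10.6 kb from the start was in all lists, with folds of 3.34 and 2.35 in shMETTL3 and 3.04 and 2.58 in shControl. In the middle of the gene, a locus at 73.2 kb had folds of 5.80 and 4.0 in shMETTL3 and 2.97 and 1.97 in shControl. Its neighbour, the merged locus chr15:38327083-38327791, held 2 peaks in shMETTL3 replicate 1, with folds of 5.49 at 74.3 kb and 4.13 further 3′. In shMETTL3 replicate 2 it was a single peak with a fold of 4.75. The shControl peaks, with folds of 2.35 and 1.81, overlapped the more 3′ of these 2 peaks and not the peak at 74.3 kb. In peak number SPRED1 hardly differed, with 6 and 6 in shMETTL3 and 5 and 6 in shControl.

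CCND1 had 26 peaks over the 4 lists, 1 more than DUSP4, with 7 and 7 in shMETTL3 and 6 and 6 in shControl, over 13.319 kb on the plus strand of chromosome 11. From the start on, 5 of its 8 loci were in all 4 lists. At the start, chr11:69641089-69641607 had folds of 3.71 and 3.20 in shMETTL3 and 4.11 and 4.39 in shControl. At 1.88 kb the folds were 4.10 and 6.32 in shMETTL3 and 3.81 and 4.16 in shControl. The locus at 2.68 kb was narrower in shMETTL3, at 182 and 191 bp, than in shControl, at 461 and 454 bp. In the middle, chr11:69647880-69648076 had 3.88 and 7.11 in shMETTL3 and 3.82 and 4.38 in shControl. The most 3′ of the shared loci, 2.96 kb from the gene end, was 644 and 648 bp wide in shMETTL3 and 642 and 618 bp in shControl.

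The last CCND1 locus, chr11:69654186-69654424 and 0.14 kb from the gene end, was knockdown-only. Its folds were 5.07 and 4.49 in shMETTL3, and that of replicate 1 was the highest of CCND1 in its list. The neighbouring locus, 0.77 kb from the end, was present in shMETTL3 replicate 2 (fold 2.09) and in both shControl lists (2.73 and 2.17). The genes closest to CCND1 in peak numbers over the 4 lists, among 13982 genes with 0.5 to 2 times its length, were ENSA and DDX19A, with the same 7, 7, 6 and 6 peaks, and ANKRD1, which differed by 1 peak. In all, 6 genes differed by at most 1 peak.

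**Figure D4:**
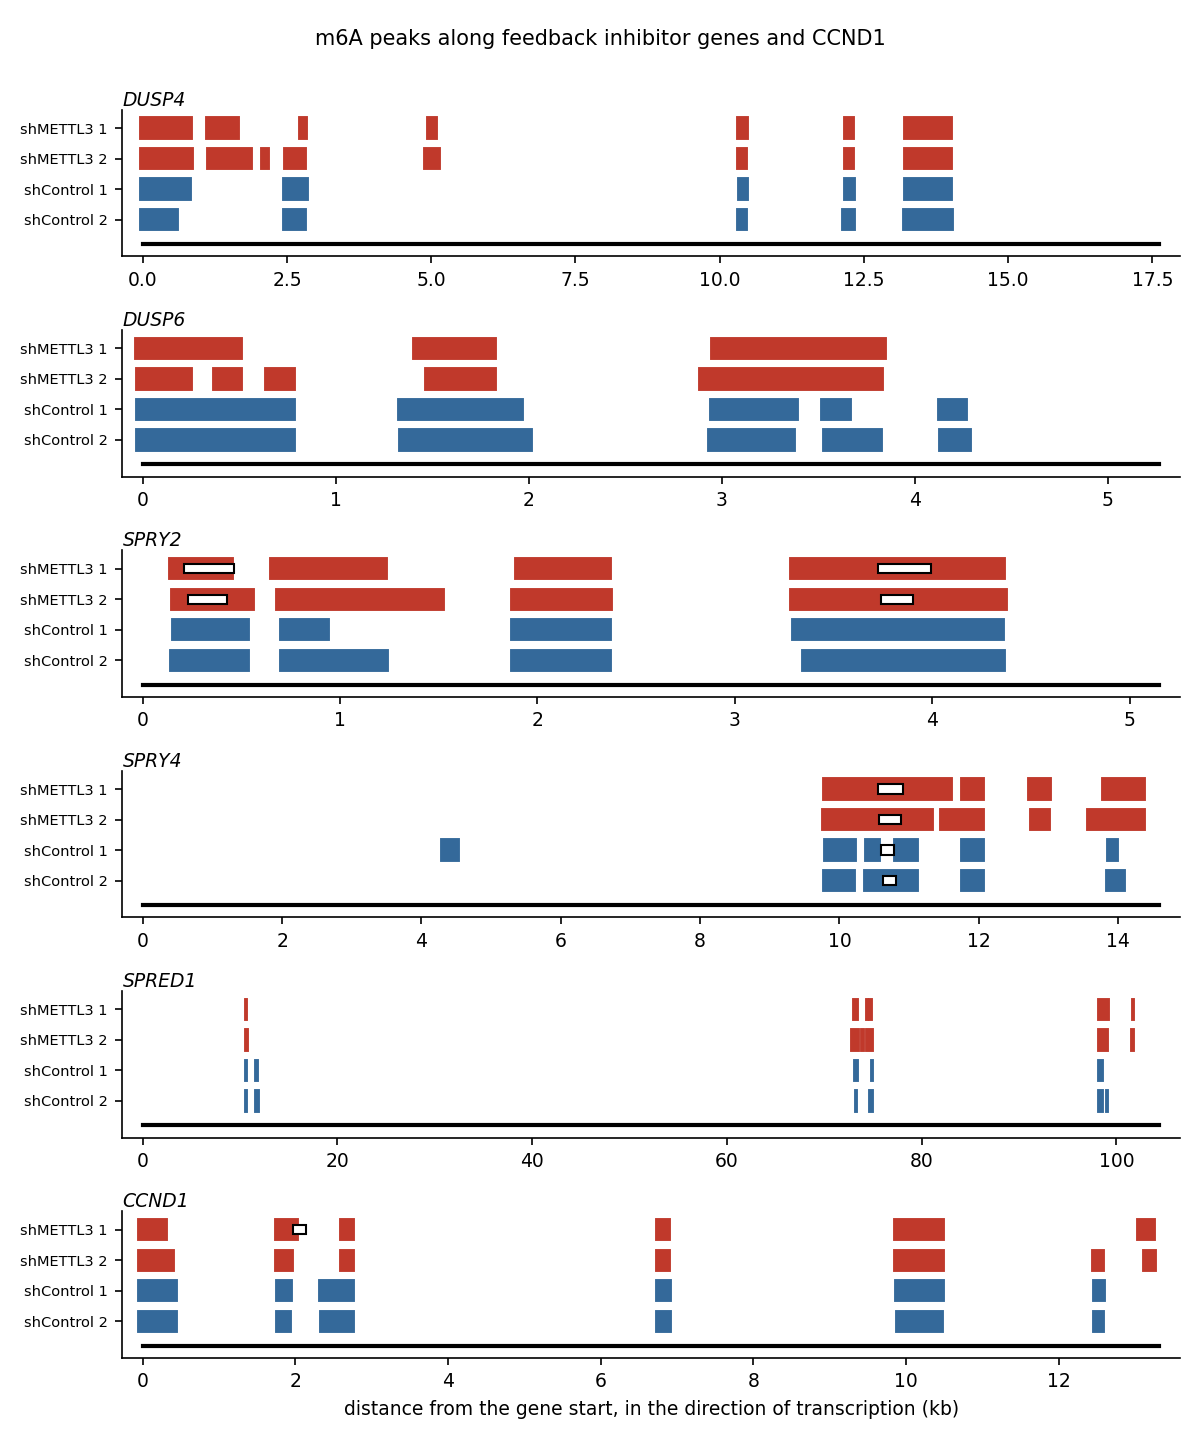
Peaks (bars) of the 4 libraries along DUSP4, DUSP6, SPRY2, SPRY4, SPRED1 and CCND1, by distance from the gene start in the direction of transcription (kb), with the shMETTL3 lists above the shControl lists. Filled bars are peaks on the strand of the gene and thin white bars are peaks on the opposite strand. Most loci are in all 4 lists, and CCND1, SPRY4 and SPRED1 each have an own-strand locus near the gene end in the shMETTL3 lists only. SPRY2 has such a locus on the opposite strand.

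Within each list, peaks of loci found in 1 group only had a lower median fold than peaks of loci in all 4 lists. Knockdown-only peaks had medians of 4.01 and 4.34 in shMETTL3 replicates 1 and 2, against 4.10 and 4.73 for peaks of loci in all 4 lists. Control-only peaks had medians of 2.95 and 2.91 in shControl replicates 1 and 2, against 3.73 and 3.67. The highest fold of a knockdown-only peak was 5.31, in SPRED1, and that of a control-only peak 3.95, in BRAF.

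**Figure D5:**
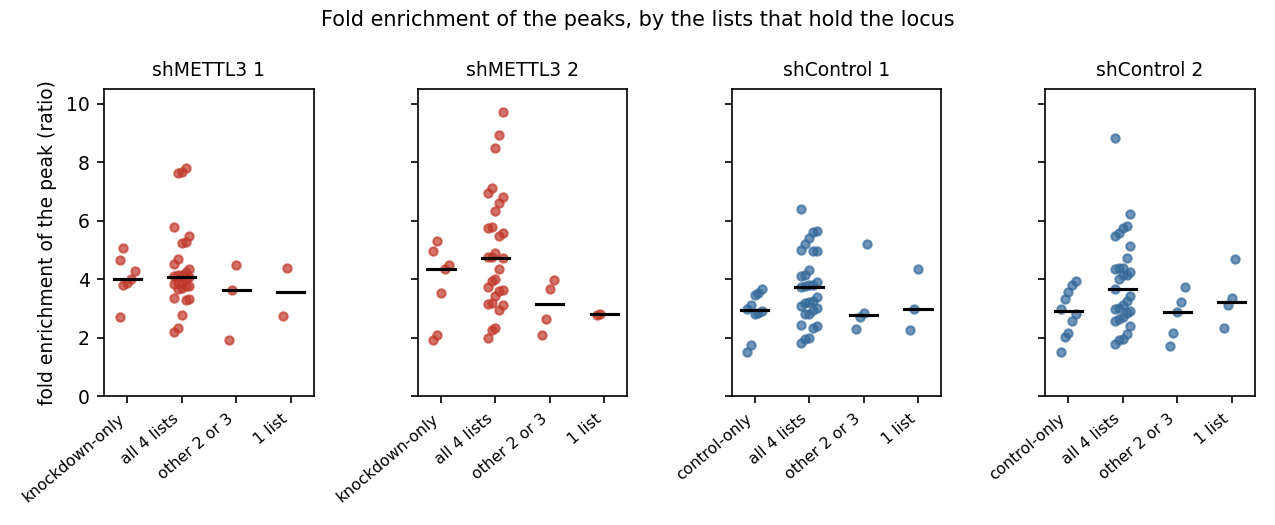
Fold enrichment of each peak (vertical axis, ratio deposited by the authors) in the 10 genes, in a panel per library, by the lists that hold the locus (horizontal axis). Black lines are medians. In the shControl panels no control-only peak reached a fold of 4, while in the shMETTL3 panels the knockdown-only medians are 4.01 and 4.34.

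Other genes of the pathway were taken from 3 lists. The shares of protein-coding genes to set beside them are 18.6% for knockdown-only loci, 21.9% for control-only loci, 24.4% for genes with fewer peaks in both shMETTL3 lists and 19.4% for genes with more. With a fold of at least 4 the shares of loci were 27.3% knockdown-only and 24.6% control-only. Knockdown-only shares were 25.4% and 26.1% without shMETTL3 replicates 1 and 2. Control-only shares were 28.7% and 27.7% without these libraries, and 29.2% and 27.9% without shControl replicates 1 and 2. Counts under such settings are given below without totals, so they are not set against these shares. A list left out raises counts partly by construction. In the cascade core, 11 of 13 genes carried a peak, 4 had fewer in both shMETTL3 lists than in both shControl lists and 5 had more. Of its loci in both shMETTL3 lists 7 of 19 (36.8%) were knockdown-only, and of those in both shControl lists 5 of 18 (27.8%) were control-only. These counts moved with the settings: knockdown-only loci numbered 0 with a fold of at least 4 and 11 without shMETTL3 replicate 2. Control-only loci numbered 1 with that fold, 3 with a −log10 q of at least 10 or equal lists, and 8 and 9 without shControl replicates 1 and 2. ARAF, a RAF kinase, and MAP2K1, encoding MEK1, had 0 and 0 peaks each in shMETTL3, against 1 and 1 for ARAF and 2 and 1 for MAP2K1 in shControl. MAP2K2, encoding MEK2, went the other way with 4 and 3 peaks in shMETTL3 and 1 and 2 in shControl, 2 of its loci being knockdown-only. GRB2, an adaptor that brings SOS to receptors, had 3 and 2 peaks in shMETTL3 and 1 and 1 in shControl. SHOC2, a scaffold that promotes RAF activation, had 1 knockdown-only locus, 2 control-only loci and 4 that every list shared. Its peaks numbered 5 and 6 in shMETTL3 and 8 and 7 in shControl. The RAS activator SOS1 kept 3 loci in all lists and had 1 control-only locus, with 3 and 4 peaks against 6 and 6. MAP2K1 was picked after its values were seen.

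Among 14 other feedback inhibitors, 11 carried peaks, 3 had fewer in both shMETTL3 lists and 3 had more, and 26 loci were in all 4 lists. Knockdown-only loci made up 8 of 36 (22.2%) and control-only loci 5 of 36 (13.9%). Knockdown-only loci numbered 18 and 14 without shMETTL3 replicates 1 and 2, 3 with a fold of at least 4 and 5 with a −log10 q of at least 10. Control-only loci numbered 8 without shMETTL3 replicate 2, 10 without shControl replicate 2 or with 50% reciprocal overlap, and 2 with the fold limit, the q limit or equal lists. NF1, the GTPase-activating partner of SPRED proteins, had 18 and 21 peaks in shMETTL3 and 15 and 17 in shControl, with 12 loci in all lists and 3 knockdown-only. In SPRED3, a relative of SPRED1, 3 of 4 loci were control-only, with 1 and 1 peaks in shMETTL3 and 4 and 4 in shControl. DUSP16, a phosphatase of JNK and p38, had 5 and 7 peaks in shMETTL3 and 2 and 2 in shControl, with 2 knockdown-only loci. DUSP1, an immediate-early phosphatase, had 2 and 1 against 3 and 3, with 1 control-only locus. ERRFI1, an inhibitor of the EGF receptor, kept 4 loci in all lists and had 1 control-only locus. Its peaks numbered 4 and 4 in shMETTL3 and 7 and 5 in shControl.

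The 17 other output genes had the most peaks of the 3 lists, 87 and 86 in shMETTL3 and 69 and 74 in shControl. Of these genes 15 carried a peak, 2 had fewer in both shMETTL3 lists and 6 had more. Of their loci 15 of 69 (21.7%) were knockdown-only and 5 of 58 (8.62%) control-only. Knockdown-only loci numbered 24 without shMETTL3 replicate 1, 9 with the q limit and 6 with the fold limit. Control-only loci numbered 9 without shMETTL3 replicate 1, 8 and 10 without shControl replicates 1 and 2, and 8 with 50% reciprocal overlap. MAFF, a small MAF transcription factor, had 5 and 5 peaks in shMETTL3 and 0 and 0 in shControl, with 3 knockdown-only loci. ELK3, an ETS factor that ERK phosphorylates, had 9 and 9 against 8 and 7, with 3 knockdown-only loci and 1 control-only. EPHA2, a receptor tyrosine kinase, kept 9 loci in all lists and had 2 control-only loci, with 14 and 10 peaks in shMETTL3 and 16 and 15 in shControl. HMGA2, a chromatin protein, also kept 9.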

How the data were processed

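Each deposited file is the peak list of 1 library, with peaks called on each strand apart, as the peak names show. Tools named in the submitters' processing notes, without role or order, are HISAT2 2.1.0, Bowtie2 2.4.2, MACS2 2.2.7.1, SAMtools and Trim Galore 0.6.6, with build hg38. How inputs and spike-in were used is not stated there. The authors' fold enrichment is a ratio within the library. Their deposited p-value and q-value are −log10 values (lowest −log10 q 2.0), and their deposited score, a rescaled −log10 q, was left unused.

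Summits were placed in RefSeq spans (GRCh38.p14) on either strand. Peaks sharing at least 1 bp on a strand formed loci. Gene strands came from the RefSeq promoter table for 6 genes, and from most of their peaks for DUSP4, ETV4, ETV5 and CCND1. The background was the loci of protein-coding genes, 28165 in both shMETTL3 lists and 30969 in both shControl lists. Peak numbers were compared by exact permutation (Python 3.11.15, pandas 2.3.3, numpy 2.4.6), and the merging code was run on simulated lists. These held well-separated loci with a single peak per list, so they do not cover loci that join several peaks of a list. Alternatives were a fold of at least 4, a −log10 q of at least 10, equal list lengths, own strand, any overlap with the gene, 50% reciprocal overlap and leaving out each library.

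The genes, lists and rules were chosen with earlier results of these data known. The rule named all 10 genes with all their loci up to 6. For genes with more it named the loci of 1 group and the 3 shared loci with the highest lowest fold, and further loci were added after their values were seen. From each pathway list it named up to 2 genes for each class of locus, and for CCND1 the 3 genes nearest in peak numbers among genes 0.5 to 2 times as long.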

Additional observations from a re-analysis of the deposited data

How the results depend on the processing

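With a fold of at least 4, the difference in peaks of the 10 genes (shMETTL3 minus shControl, mean) turned from -7.0 to 7.5, that of BRAF turned to 1.5 and that of ETV4 to 1.0. Under this setting 1 of 9 loci in both shControl lists was control-only, against 24.6% over protein-coding genes. Knockdown-only loci made up 8 of 16, against 27.3%, and 6 loci were in all 4 lists. A peak below the limit is taken as absent in these counts. Among the 10 genes, 1 had fewer peaks in both shMETTL3 lists and 5 had more. Median folds of whole lists were 3.92 and 3.93 in shMETTL3 and 3.84 and 3.65 in shControl, and the cause of the turn was not tested. Knockdown-only loci numbered 11 of 35 (31.4%) with 50% reciprocal overlap, a stricter link between peaks, against 23.8% over protein-coding genes. On the own strand 1 gene had more peaks in both shMETTL3 lists. Leaving out a library in turn gave 3 to 4 genes with fewer peaks and 3 to 4 with more. Control-only loci numbered 11 to 14, knockdown-only loci 7 to 10 and loci in all remaining lists 27 to 30. The difference was -8.0 to -6.0. Control-only shares were 26.8%, 29.3%, 30.4% and 29.5% without shMETTL3 replicates 1 and 2 and shControl replicates 1 and 2. Over protein-coding genes they were 28.7%, 27.7%, 29.2% and 27.9%. Knockdown-only shares were 22%, 24.4%, 20% and 22.9%, against 25.4%, 26.1%, 22.5% and 24.3%. For gene counts under these settings no share over protein-coding genes is given. A list left out cannot veto a class, so counts rise partly by construction. The other 49 of 58 recomputed values kept the direction of the difference or a count within 1.5 times, but the difference shrank to -2.0 (exact permutation p 1.0, groups overlapping) with a −log10 q of at least 10 and to -3.0 with lists of equal length. With replicate numbers as a replicate block (sign flips within pairs) the difference was -7.0 with an exact permutation p of 0.5, the smallest 2 pairs allow, and nothing says that equal numbers pair the libraries. Read depth is unknown, so absence of a peak is absence from a list.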
